A study of Mus musculus with 16 samples.

Results

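Fgf21 encodes fibroblast growth factor 21, a hormone that tissues with failing mitochondria release into the blood. It was followed here in the brain of mice that overexpress a mutant Twinkle protein. The genes Fgf21 and Gdf15 were looked up among the probe sets that the GEO platform annotation pairs with a single gene symbol. Fgf21 was matched by 1 probe set of 44904 analysed, and it is 1 of 18168 named genes. Gdf15, which encodes the stress hormone growth differentiation factor 15, is not analysed here. The study compared, by Affymetrix arrays, mutant Twinkle overexpressor and wild-type cerebellum and mutant Twinkle overexpressor and wild-type hippocampus, with 4 arrays in each of the 4 groups. Twinkle is the helicase that unwinds mitochondrial DNA during its replication, and the overexpressing mice, known as deletor mice, model progressive external ophthalmoplegia. Mutants of replicates 1 to 4 were 24, 24, 21 and 21 months old in both regions, and wild types were 26, 24, 21 and 23 months old, so the genotypes were not matched for age. The labels give neither the promoter of the transgene nor strain or sex. They speak of biological replicates without naming animals, so a p-value here reflects only how far these arrays scatter.

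FGF21 signals through FGF receptors that are joined by the co-receptor beta-Klotho, encoded by Klb, while GDF15 signals through GFRAL and the receptor tyrosine kinase RET. When mitochondria fail, kinases of the integrated stress response phosphorylate the translation factor eIF2 alpha, and the transcription factor ATF4 is then made and switches on Fgf21, Gdf15 and enzymes of serine, one-carbon and amino acid metabolism. In skeletal muscle of deletor mice Fgf21 is a known target of this response. The arrays of the brain regions ask whether the same transcript changes there.

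The Fgf21 promoter is shown because it holds the kind of site through which ATF4 reaches this gene. The window lies on the minus strand of mouse chromosome 7, chr7:45615441-45615740 in the RefSeq table for GRCm38.p6, and covers 250 bases before to 50 bases after the start of the gene. It is printed in the direction of transcription. The first stretch in capitals is the amino acid response element TGATGCAA read on the opposite strand, as TTGCATCA, and the second is the E-box CACGTG, which is the same on both strands.
Fgf21 promoter: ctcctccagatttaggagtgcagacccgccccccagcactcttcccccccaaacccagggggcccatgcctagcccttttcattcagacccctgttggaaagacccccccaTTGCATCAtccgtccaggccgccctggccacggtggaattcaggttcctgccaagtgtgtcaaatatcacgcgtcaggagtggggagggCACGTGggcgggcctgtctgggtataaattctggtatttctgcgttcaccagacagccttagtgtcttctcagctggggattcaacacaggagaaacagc
The response element spans bases 139 to 132 before the start, and the E-box spans bases 50 to 45 before it. These are the only matches to the 2 motifs in the window, and they do not overlap each other. Searched on both strands, TGATGCAA was present in 294 of 32851 promoter windows of the table, or 0.895%, and CACGTG in 2349, or 7.15%. A match describes the letters and does not show that a factor binds there.

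The deposited values are relative and are taken here as log2. In each region the median over its 8 arrays is 0 for Fgf21 as for the other probe sets, so 4 arrays lie above 0 and 4 below it by construction, and no expression level is left. The order of the regions by level can therefore not be given, and whether the probe set lay above background is not known from these values. For the same reason the region labels could not be checked against region markers. Twnk, the gene of Twinkle, was measured by 1 probe set and differed by 0.06 in cerebellum and 0.06 in hippocampus (limma adjusted p = 0.915 and 0.766). The cerebellum value was 0.03 without wild-type replicate 2. Which part of the transcript that probe set reads was not analysed here, so it was not used to check the labels.

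In the cerebellum, Fgf21 lay at 0.06, 0.11, 0.24 and -0.15 in mutant replicates 1 to 4, against -0.10, 0.17, -0.06 and -0.15 in wild-type replicates 1 to 4. In mutants 3 of 4 arrays were above 0, against 1 of 4 in wild types, and the groups overlapped over most of their range. Mutant replicate 4 was the lowest of the 8 arrays and mutant replicate 3 the highest. Mutants averaged 0.06 ± 0.16 and wild types -0.03 ± 0.14 (SD, n = 4). The difference was 0.10 (SE 0.10, limma adjusted p = 0.936 over all genes), smaller than the spread within either genotype. An exact permutation test of the 8 arrays gave a two-sided p of 0.4, where 0.0286 is the smallest this design allows. The difference was 0.04 without mutant replicate 3 and 0.06 without wild-type replicate 4, against 0.17 without mutant replicate 4 or wild-type replicate 2.

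In the hippocampus, Fgf21 lay at 0.16, 0.00, 0.22 and -0.06 in mutant replicates 1 to 4, against 0.25, -0.20, -0.00 and -0.03 in wild-type replicates 1 to 4. Again 3 of 4 mutant arrays were above 0, against 1 of 4 wild-type arrays. The wild types held both extremes, with replicate 1 highest and replicate 2 lowest of the 8 arrays, so the wild-type values enclosed all mutant values. Mutants averaged 0.08 ± 0.13 and wild types 0.00 ± 0.18 (SD, n = 4). The difference was 0.07 (SE 0.10, limma adjusted p = 0.869), and the exact permutation test gave a two-sided p of 0.571. The difference was 0.16 without wild-type replicate 1 and 0.12 without mutant replicate 4. It was 0.01 without wild-type replicate 2, 0.03 without mutant replicate 3 and 0.05 without mutant replicate 1.

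**Figure D1:**
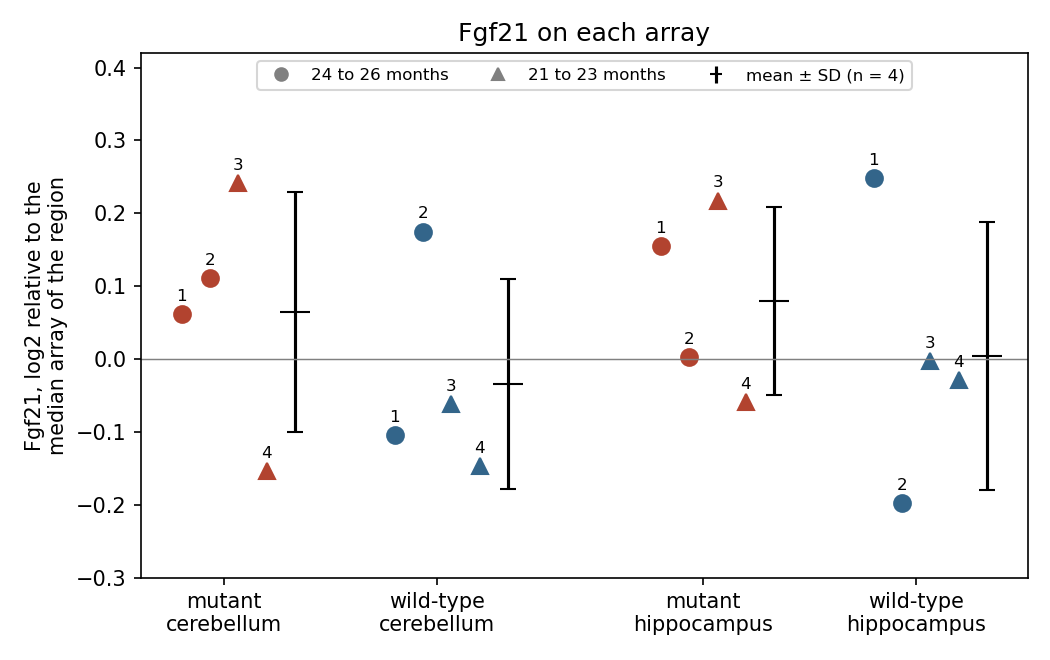
Fgf21 on each of the 16 arrays, in log2 relative to the median array of the region (vertical axis), by genotype and region. Circles are mice of 24 to 26 months, triangles mice of 21 to 23 months, numbers are replicates, and the black bar is the mean ± SD of 4 arrays. Mutants and wild types overlap in both regions.

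The intervals of these differences describe only the measured signal of the probe set. Whether it lay above background is not known, so they do not bound the change of the transcript itself. In cerebellum the 95% interval reached from -0.12 to 0.32, which on the log2 scale is a change from -7.69% to 24.4% in mutants relative to wild types. In hippocampus it reached from -0.14 to 0.29, or from -9.29% to 22.2%. Larger changes of the measured signal than these bounds lie outside the intervals. If the deposited values were natural logs, the upper bounds would stand at 1.37-fold in cerebellum and 1.34-fold in hippocampus. The SE of Fgf21, 0.10, was above the median of 0.07 over all genes, and 17.0% of genes had a larger one.

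The estimated genotype difference of Fgf21 was 0.10 in cerebellum and 0.07 in hippocampus, each no larger than its SE of 0.10. The difference between regions, hippocampus minus cerebellum, was -0.03 (SE 0.14, limma adjusted p = 0.988), with a 95% interval from -0.33 to 0.28. Averaged over both regions for each genotype and replicate number, mutants stood at 0.07 ± 0.14 and wild types at -0.02 ± 0.07 (SD, n = 4). This difference was 0.09 (SE 0.07, limma adjusted p = 0.714) with a 95% interval from -0.06 to 0.24, and the exact permutation test gave a two-sided p of 0.343. It was 0.03 without mutant replicate 3, which was high in both regions, and 0.15 without mutant replicate 4, which was low in both.

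The limma fit called 0 of 18168 genes (0%) at an adjusted p under 0.05 in each of these 4 comparisons. At an unadjusted p under 0.05 it held 979 genes (5.39%) in cerebellum, 1459 (8.03%) in hippocampus, 972 (5.35%) for the contrast of the regions and 1546 (8.51%) for their average. Fgf21 was outside all of them, with unadjusted limma p of 0.341, 0.474, 0.863 and 0.222 in that order. A difference at least as large in size as that of Fgf21 was held by 24.1% of genes in cerebellum and 41.9% in hippocampus.

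**Figure D2:**
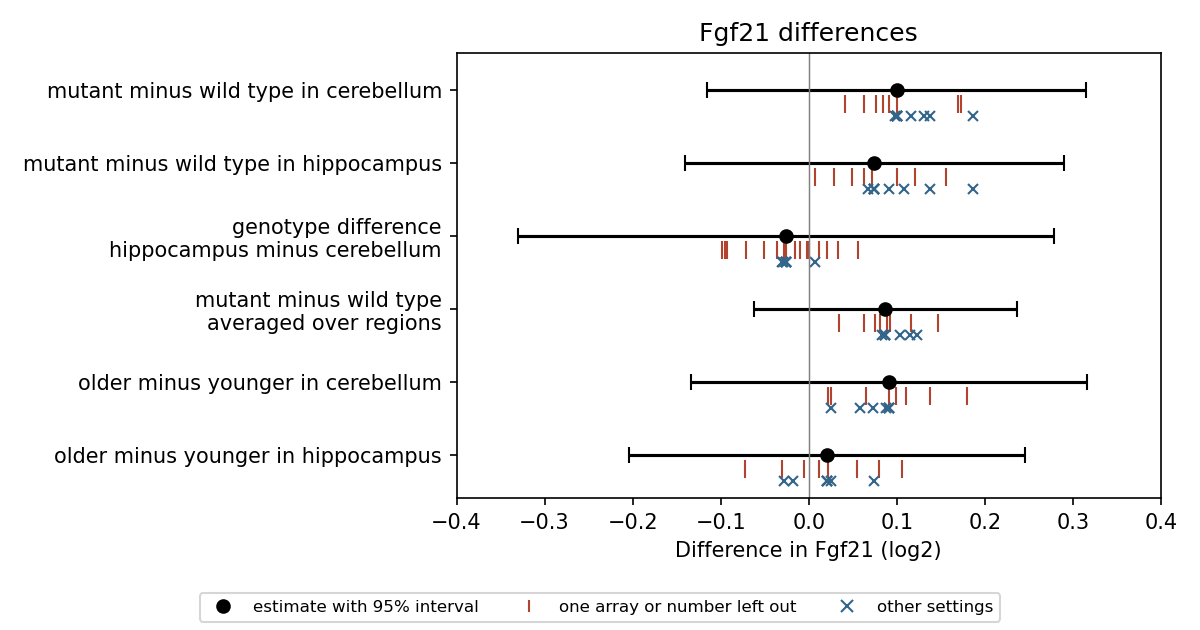
Differences of Fgf21 in log2 (horizontal axis) for the 4 genotype comparisons and the 2 age comparisons. Black points with bars are the estimates with 95% intervals, red ticks are fits with one array, or one replicate number, left out, and blue crosses are other settings. All 6 intervals include 0.

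Age was compared between mice of 24 to 26 months and mice of 21 to 23 months, with genotype in the fit. In the cerebellum the older mutants stood at 0.06 and 0.11 and the younger mutants at 0.24 and -0.15, so the younger pair enclosed the older one. Older wild-type cerebellum stood at -0.10 and 0.17, against -0.06 and -0.15 in younger wild types. The difference, older minus younger, was 0.09 (SE 0.11, limma adjusted p = 0.999) and shrank to 0.02 when mutant replicate 4 was left out and to 0.03 when wild-type replicate 2 was. It was 0.18 when mutant replicate 3 was left out. In the hippocampus the older mutants stood at 0.16 and 0.00, against 0.22 and -0.06 in younger mutants. Older wild-type hippocampus stood at 0.25 and -0.20, farther apart than any other pair in that region, against -0.00 and -0.03 in younger wild types. The difference was 0.02 (SE 0.11, limma adjusted p = 0.988), and it fell below 0, at -0.07, without wild-type replicate 1. The fits called 0 genes (0%) in either region, and 764 (4.21%) in cerebellum and 1190 (6.55%) in hippocampus had an unadjusted p under 0.05, Fgf21 not among them.

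Within age classes the genotype difference of Fgf21 rested on 2 arrays a group. In cerebellum it was 0.05 in the older mice and 0.15 in the younger mice, and in hippocampus 0.05 in the older mice and 0.10 in the younger mice, each with an SE of 0.16. The change of the genotype difference with age was -0.10 in cerebellum and -0.04 in hippocampus (SE 0.23 each, limma adjusted p of 1.00 and 0.998).

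The labels give the 2 regions of one genotype and replicate number the same age, without saying that they came from one animal. In mutants the numbers kept nearly the same order in both regions, with replicate 3 highest and replicate 4 lowest. In wild types they did not, since replicate 1 was at -0.10 in cerebellum and 0.25 in hippocampus, and replicate 2 at 0.17 in cerebellum and -0.20 in hippocampus. Over all 8 pairs Pearson's r was 0.07 (exact permutation p = 0.881) and Spearman's rho 0.21 (exact permutation p = 0.619). Adjusted over these 2 tests by Benjamini-Hochberg, both p-values were 0.881. The pooled coefficients mix both genotypes, and with 4 pairs a genotype no coefficient is given within one. Wild-type replicates 3 and 4, unlike 1 and 2, lay below 0 in both regions. Whether the genotypes differ in how the regions go together was not tested. Without mutant replicate 3 and wild-type replicate 2, farthest from the median in cerebellum, r was 0.20 over 6 pairs.

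**Figure D3:**
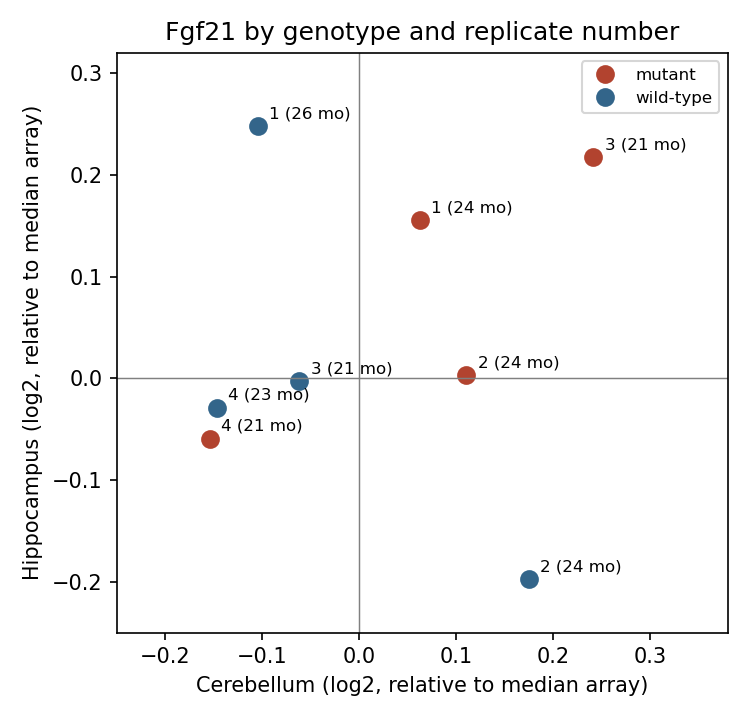
Fgf21 in hippocampus (vertical axis) against cerebellum (horizontal axis), both in log2 relative to the median array of the region, for each genotype and replicate number, with the age in months. Mutant replicate 3 is high and mutant replicate 4 low in both regions, while wild-type replicates 1 and 2 lie on opposite sides of 0.

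Other tissue and labelling controls varied on some of the arrays that hold the extremes of Fgf21, and less on others. In hippocampus the mean of 9 cerebellar granule neuron markers stood at 2.39 and that of 4 Purkinje cell markers at 2.23 on wild-type replicate 1, the array with the highest Fgf21, and granule neuron markers stood at 0.83 on mutant replicate 1. The other hippocampus arrays lay between -0.27 and 0.26 for granule neuron markers. The mean of 10 choroid plexus markers stood at 2.13 on hippocampus mutant replicate 4 and at -1.48 on cerebellum mutant replicate 4, the arrays with the lowest mutant Fgf21 in each region. It was also raised, at 0.90, on hippocampus wild-type replicate 1, the array with the highest Fgf21 of that region. The poly-A spike-in probe sets averaged 0.47 on cerebellum mutant replicate 2 and 0.49 on cerebellum mutant replicate 4, while the other cerebellum arrays reached 0.04 at most. The hybridization spike-in probe sets averaged -0.80 on cerebellum wild-type replicate 4, which holds the lowest wild-type Fgf21 of that region, and between -0.27 and 0.26 on the other 15 arrays. On cerebellum mutant replicate 3, with the highest Fgf21 of its region, choroid plexus markers averaged 0.09 and poly-A spike-ins -0.13. On hippocampus wild-type replicate 2, with the lowest of its region, granule neuron markers averaged -0.06 and choroid plexus markers 0.42. Without cerebellum mutant replicates 2 and 4 the cerebellum difference of Fgf21 was 0.19 (limma adjusted p = 0.999). Without hippocampus mutant replicates 1 and 4 and wild-type replicate 1, the hippocampus difference was 0.19 (limma adjusted p = 1.00). Each of these fits thus moved the value by over 1.5 times and left it uncalled. The mean of the blood cell markers, 4 of 6 listed, did not overlap between the genotypes in either region. Among single genes 4.76% did not overlap in hippocampus, and the share in cerebellum is not given here. The blood marker mean lay between -0.12 and -0.07 in mutant cerebellum, against 0.04 to 0.35 in wild-type cerebellum. In hippocampus it lay between -0.30 and -0.06 in mutants, against 0.06 to 0.67 in wild types. Of these 4 markers, 2 were lower at an unadjusted p under 0.05 in each region, where 2.24% of all genes were in cerebellum and 2.75% in hippocampus, and none passed after adjustment. They were Alas2, the erythroid enzyme of heme synthesis, which differed by -0.97 in cerebellum and -1.19 in hippocampus, and the globin gene Hbb-b2, which differed by -0.38 in cerebellum and -0.59 in hippocampus. The other 2 did not go with them throughout: Slc4a1 differed by 0.03 in cerebellum and -0.10 in hippocampus, and Hba-a1 by -0.02 in cerebellum and 0.08 in hippocampus. The mean of 8 meningeal and fibroblast markers was 0.84 on hippocampus mutant replicate 1 and between 0.03 and 0.13 on the other mutant hippocampus arrays. In wild-type hippocampus it lay between -0.41 and -0.04. That of 8 ependymal markers lay between -0.04 and 0.62 in mutant hippocampus, against -0.33 to -0.02 in wild-type hippocampus. In hippocampus 5 of the 8 meningeal and fibroblast markers and 6 of the 8 ependymal markers were higher at an unadjusted p under 0.05. Of all genes 5.28% were. At the same threshold 2 of 6 dentate granule neuron markers were lower in hippocampus, where 2.75% of all genes were. Of 12 microglia and macrophage markers 2 were higher in cerebellum, where 5.39% of all genes passed that threshold in either direction. None of these markers passed after adjustment. Their part in the values of Fgf21 and its pathway was not tested. In bulk tissue, fewer cells of a type and less RNA per cell cannot be told apart.

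The receptor side was measured through 6 of 7 listed genes, since Gfral is not analysed here. At an adjusted p under 0.05 none passed in either region, and none had an unadjusted p under 0.05. Their median difference was -0.08 in cerebellum and 0.00 in hippocampus, against 0.01 and 0.02 over all genes. Klb, the beta-Klotho co-receptor that FGF21 requires, stood at 0.12, -0.05, 0.03 and 0.01 in mutant cerebellum, against 0.11, -0.15, -0.14 and 0.12 in wild-type cerebellum. Its difference was 0.05 there (SE 0.08), and from 0.00 to 0.14 over its alternatives. In hippocampus Klb stood at 0.22, 0.05, 0.15 and -0.10 in mutants, against 0.05, -0.08, -0.02 and -0.02 in wild types. Here mutant replicates 1, 2 and 3 were above all wild types, replicate 2 barely so, and mutant replicate 4 below them, and the difference was 0.10 (SE 0.08, limma adjusted p = 0.761). It was 0.05 without mutant replicate 1 and 0.16 without mutant replicate 4.

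Fgfr1 and Fgfr2 encode FGF receptors that can pair with beta-Klotho. Fgfr1 differed by -0.07 in cerebellum, a value that turned positive without cerebellum mutant replicates 2 and 4, and by -0.15 in hippocampus (limma adjusted p = 0.952 and 0.675). The hippocampus value was -0.05 without those 3 hippocampus arrays. Fgfr2 differed by -0.12 in cerebellum and 0.12 in hippocampus (limma adjusted p = 0.884 and 0.641). Without the same arrays these were -0.04 and 0.02. Over all alternatives Fgfr1 ran from -0.25 to 0.03 in cerebellum and from -0.20 to -0.05 in hippocampus, and Fgfr2 from -0.22 to -0.04 in cerebellum and from 0.02 to 0.20 in hippocampus. The far ends include single probe sets, each taken as the one of smallest p, which favours large values.

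Among related receptors none of 5 passed in either region. Kl, which encodes the Klotho co-receptor of FGF23 and is itself abundant in choroid plexus and on that marker list too, had the largest difference of the list in cerebellum, -0.45 (SE 0.24, limma adjusted p = 0.884). Its lowest cerebellum value, -0.96, was on mutant replicate 4, the array with the lowest choroid plexus mean, and without that array the difference was -0.24. It was -0.29 without wild-type replicate 1, which had the highest choroid plexus mean of that region. In hippocampus Kl was highest, at 0.82, on mutant replicate 4, which also had the highest choroid plexus mean. Gfra2, the neurturin receptor and a relative of GFRAL, differed by -0.30 in hippocampus (limma adjusted p = 0.620), and by -0.06 without wild-type replicate 1. Gfra4, the persephin receptor, differed by 0.13 in hippocampus (limma adjusted p = 0.695), and by 0.01 without wild-type replicate 1. Over all alternatives Kl ran from -0.82 to -0.19 in cerebellum, Gfra2 from -0.65 to -0.06 in hippocampus and Gfra4 from 0.00 to 0.19 in hippocampus.

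Among 11 other genes of the FGF family none passed, and the median difference was 0.06 in cerebellum and 0.01 in hippocampus. Fgf23, the phosphate-regulating hormone of the same endocrine subfamily as FGF21, differed by 0.16 in cerebellum (limma adjusted p = 0.884). The value was 0.09 without wild-type replicate 3. Fgf10 differed by 0.17 in cerebellum, or 0.11 without wild-type replicate 3, and Fgf1 by 0.10 in hippocampus, with a range from 0.07 to 0.22 over its alternatives.

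Of 20 listed ligands of the TGF-beta superfamily, to which GDF15 belongs, 16 were measured and none passed. In hippocampus 2 of the 16 had an unadjusted p under 0.05, both higher, where 5.28% of all genes did. One was Inhbe, which encodes the inhibin beta E chain and is a liver-enriched target of the stress response. It stood at -0.01, 0.09, 0.23 and 0.22 in mutant hippocampus, against -0.09, 0.01, -0.08 and -0.19 in wild-type hippocampus. Mutant replicates 2, 3 and 4 were above all wild types, and mutant replicate 1 lay just below wild-type replicate 2. The difference was 0.22 (SE 0.08, limma adjusted p = 0.507). The other was Bmp4, a bone morphogenetic protein, at 0.35 in hippocampus (limma adjusted p = 0.613) and 0.16 without mutant replicate 1. Inha differed by 0.21 in hippocampus.

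Of 5 enzymes that can process these hormones none passed. Furin, a proprotein convertase of the type that cleaves the GDF15 precursor, differed by -0.15 in cerebellum (limma adjusted p = 0.884), and by -0.06 without wild-type replicate 3. The related convertases Pcsk6 and Pcsk7 differed by -0.07 and 0.07 in cerebellum. With single arrays left out Pcsk6 ran from -0.11 to -0.02 and Pcsk7 from 0.02 to 0.11.

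The regulators upstream of Fgf21 were measured through 19 of 21 listed genes, and none had an unadjusted p under 0.05 in either region. Their median difference was 0.03 in cerebellum and 0.02 in hippocampus. The gene for ATF4 itself stood at 0.05, 0.04, -0.01 and 0.08 in mutant cerebellum, against -0.08, 0.04, -0.12 and -0.01 in wild-type cerebellum, with a difference of 0.08 (SE 0.07, limma adjusted p = 0.913) and a range from 0.06 to 0.21 over its alternatives. In hippocampus Atf4 differed by -0.00, with no steady sign between settings. Its partner Ddit3, which encodes CHOP, differed by 0.07 in cerebellum and 0.02 in hippocampus, and its alternatives lay on both sides of 0. In cerebellum they ran from -0.00, without the arrays with raised spike-ins, to 0.19, for its probe set of smallest p alone. The limma adjusted p of that probe set was 0.844, and its unadjusted limma p was 0.0217. In hippocampus they ran from -0.07, without the arrays with raised markers, to 0.08, for a single probe set. Atf4 and Ddit3 are given for their role, with their values known. ATF4 activity is set largely by translation, which the array does not measure.

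Oma1, the mitochondrial inner membrane protease that relays mitochondrial stress to the eIF2 alpha kinases, differed by 0.11 in cerebellum and 0.15 in hippocampus (limma adjusted p = 0.913 and 0.641). Its cerebellum value ran from -0.03, without mutant replicates 2 and 4, to 0.16, without mutant replicate 1. Ppargc1a, a coactivator of mitochondrial biogenesis, differed by 0.12 in hippocampus, and by 0.07 without wild-type replicate 3. Nr1d1, the clock repressor REV-ERB alpha, differed by -0.27 in cerebellum, and the value was -0.15 when mutant replicate 2 was left out, -0.14 when wild-type replicate 3 was, and -0.06 without both arrays with raised spike-ins.

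The targets that Fgf21 shares ATF4 with were measured through 28 of 29 listed genes. None passed in either region, and the median difference was 0.02 in cerebellum and 0.04 in hippocampus. At an unadjusted p under 0.05 there was 0 of 28 in cerebellum, where 5.39% of all genes had one. In hippocampus there were 3 higher and 1 lower, where 5.28% of all genes were higher and 2.75% lower. Slc7a3, a transporter of arginine and other cationic amino acids, stood at 0.17, 0.40, 0.78 and 0.05 in mutant hippocampus, against -0.30, -0.05, -0.52 and -0.09 in wild-type hippocampus. The genotypes did not overlap, as was the case for 4.76% of all genes in this region, and the difference was 0.59 (SE 0.14, limma adjusted p = 0.258). On these arrays the highest Slc7a3 and the highest mutant Fgf21 were both on mutant replicate 3. The highest Fgf21 of the region was on wild-type replicate 1, where Slc7a3 stood at -0.30. Pearson's r between the 2 genes was 0.27 over the hippocampus arrays.

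Cth, the enzyme that makes cysteine from cystathionine, differed by 0.30 in hippocampus (SE 0.11, limma adjusted p = 0.514) and -0.06 in cerebellum, where it ran from -0.16 without mutant replicate 2 to -0.01 without mutant replicate 4. Cebpb, a transcription factor that pairs with ATF4, differed by -0.47 in hippocampus (limma adjusted p = 0.584), and by -0.19 without wild-type replicate 1, which stood at 1.23. In cerebellum Cebpb differed by -0.12, by -0.01 without wild-type replicate 3 and by -0.20 without wild-type replicate 4.

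**Figure D4:**
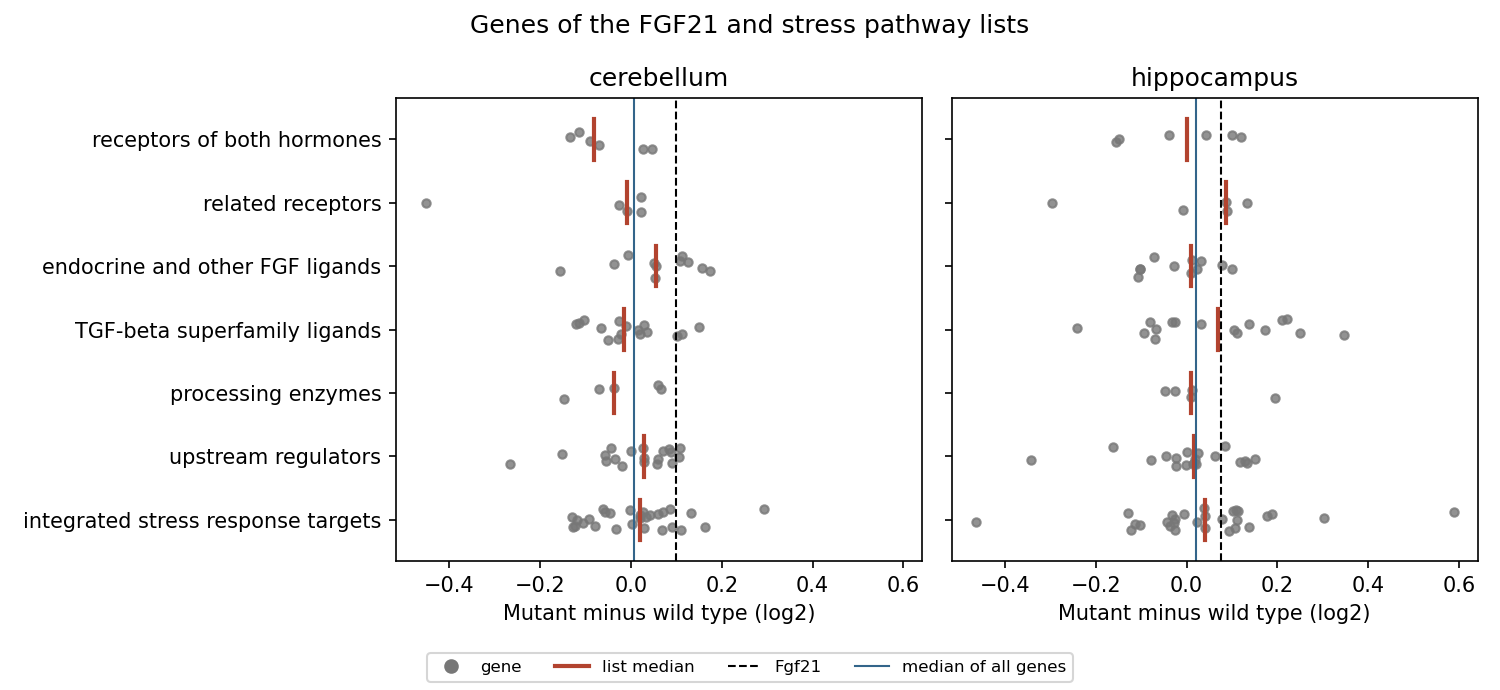
Differences in log2, mutant minus wild type (horizontal axes), for each measured gene of the 7 pathway lists in cerebellum (left) and hippocampus (right). Grey points are genes, red bars list medians, the dashed line is Fgf21 at 0.10 in cerebellum and 0.07 in hippocampus, and the blue line is the median of all genes. The list medians lie between -0.08 and 0.09.

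The response element found in the Fgf21 promoter was also sought in the other genes. Of the listed stress response targets 24 had a promoter window in the table, and 6 of them, or 25%, held TGATGCAA, against 1.03% of all genes in the table. These 6 were Atf3, Chac1, Nupr1, Pycr1, Slc7a11 and Vldlr, of which Pycr1 is not analysed here. The differences of the other 5 lay between -0.03 and 0.29 in cerebellum and between -0.13 and 0.14 in hippocampus. Over all 116 measured genes with the motif, Fgf21 included, the median difference was 0.02 in cerebellum and 0.02 in hippocampus, against 0.01 and 0.02 over all genes. Of these 116, 58.6% lay above 0 in each region, where 53.6% of all genes did in cerebellum and 58.9% in hippocampus.

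The genes whose pattern was most like that of Fgf21 were found by Pearson's r over the 16 arrays, which share their region's centring and any array-wide effect. The highest were Krt71, a keratin of the hair follicle, at 0.81, Trgv1, a variable segment of the T cell receptor gamma chain, at 0.81, Klhl25, an adaptor of a ubiquitin ligase, at 0.78, Them7 at 0.78 and Aym1 at 0.77. Each was at 0.73 or more within both regions (8 arrays each). As these genes were picked by r over the same 16 arrays, this is no separate evidence of likeness. The lowest were Ints5, a subunit of the Integrator complex, at -0.80, Tradd, an adaptor of TNF receptor signalling, at -0.77, and Clmn at -0.72. Of 18167 other genes 12, or 0.0661%, were above 0.7, so values of this size mark the end of a long ranking. None of these genes was in a pathway list. The stress response targets had a median r of 0.02, from -0.45 to 0.49, and the regulators one of 0.01, from -0.43 to 0.44. The receptors had a median r of 0.20, from 0.10 to 0.33, but most of them changed sign between the regions. Klb was at -0.33 in cerebellum and 0.77 in hippocampus, and Ret at -0.55 and 0.62. Fgfr2 was at 0.32 in cerebellum and -0.12 in hippocampus, and Fgfr4 at 0.26 and -0.10. Only Fgfr1 and Fgfr3 were above 0 in both.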

How the data were processed

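Per the labels' protocols, Trizol RNA (5 ug a sample) was turned into biotin-labelled cRNA. The submitters' processing notes name GCOS 4.0. How probes were summarised and arrays normalized is not given in the sources used. The deposited log2 values (the log base is taken as 2) are relative to the median array of each region: that median was within 1e-05 of 0 for 100% of analysed probe sets. The members and gene lists were chosen with earlier results of these data known.

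Of 45101 probe sets, 64 controls and 133 with an empty value were left out. Of the rest, 34843 had 1 symbol in the platform annotation, 931 several and 9130 none. The mean over probe sets gave 18168 genes. The limma package (version 3.58.1, R 4.3.3) fitted a mean per genotype and region over all 16 arrays, and for the average a mean per genotype over 8 values. For age, each region had its own genotype and age class terms. All tests are two-sided, and p-values were adjusted over all genes by the Benjamini-Hochberg method, with 0.05 as the threshold. The fit was tested on simulated data. Single values were tested by exact permutation, and lists got counts and medians only. The genes named were Twnk, per list the 3 of smallest p in either region, and the 5 most and 3 least like Fgf21 by r. Atf4 and Ddit3 were added outside this rule, for their role, with their values known. Each is given in the region of its smaller p, and Fgf21, Twnk, Klb, Fgfr1, Fgfr2, Oma1, Cth, Cebpb, Atf4 and Ddit3 in both, a choice made after the values were seen. Mutant and wild-type arrays of equal replicate number did not deviate together throughout (r from -0.19 to 0.23 within a region), so they were not paired. The 2 regions of one genotype and number did not either, with r from -0.17 to 0.13 in mutants and from -0.05 to 0.17 in wild types. The average and the correlation between regions still joined these 2 arrays by number, since they have the same age. No 2 arrays were identical. The number of arrays limits the precision. Alternatives were quantile normalization, array medians, single probe sets, robust variance, array weights, a replicate term, age in months, a region alone and left-out arrays.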

Additional observations from a re-analysis of the deposited data

Results flagged for a closer look

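Among 33 named genes in the 4 groups of 4 arrays, 1 array stood far from the other 3 of its group in 7 of 132 cases, and chance gives about 1 in 20. Fgf21 was not among them. In mutant hippocampus, Them7 was 0.27 on replicate 1, against at most 0.02 on the others. In mutant cerebellum, Ints5 was 0.086 on replicate 4, against at most 0.00. In wild-type hippocampus, Gfra2 was 0.92 on replicate 1, against at most 0.02. In wild-type cerebellum, replicate 2 was apart for Twnk at -0.15, Fgfr2 at 0.13 and Tradd at -0.034, and replicate 3 for Furin at 0.36, where the others lay between -0.00 and 0.04.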

How the results depend on the processing

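Over its alternatives Fgf21 ranged from 0.041 to 0.19 in cerebellum, from 0.0072 to 0.19 in hippocampus and from 0.035 to 0.15 for the average, and no alternative called it in any comparison. Its sign turned in 2 comparisons. The contrast of the regions was 0.0070 with array weights and from -0.098 to 0.056 with single arrays left out. Older minus younger in hippocampus was -0.018 with quantile normalization, -0.029 with array weights and from -0.072 to 0.11 with single arrays left out. Of the named pathway genes, Fgfr1 in cerebellum was 0.027, Oma1 -0.026 and Ddit3 -0.0012 without the arrays with raised spike-ins, and Fgfr1 lay from -0.15 to 0.0050 with single arrays left out. In hippocampus Atf4 was 0.0064 and Ddit3 -0.0088 with quantile normalization, 0.0085 and -0.018 with array weights, and 0.051 and -0.068 without hippocampus mutant replicates 1 and 4 and wild-type replicate 1. Atf4 was also 0.16 for its probe set of smallest p and 0.018 with age in months as a covariate. With single arrays left out Atf4 lay from -0.063 to 0.039 and Ddit3 from -0.026 to 0.065. Each cause was not tested. No named gene passed in any of these fits. The regions shown for named genes were narrowed after seeing these alternatives. Over all 50 pairs of a named gene and a region, 49 of 850 alternative values turned in sign, in 17 pairs. In the 35 pairs given it was 18 values in 5 pairs, and in the 15 pairs left out 31 values in 12 pairs. The lowest adjusted p among the pairs left out was 0.641.

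The count of called genes, 0 in each comparison, became 2 in hippocampus with quantile normalization or robust variance (Arsj and Cpne9, both lower in mutants), 1 without the arrays with raised markers (Vgll3, higher in mutants) and from 0 to 7 with single arrays left out. The contrast of the regions gave from 0 to 1 with single arrays left out, and the average gave 1 for single probe sets, which has no gene symbol here. Older against younger gave 7 in cerebellum with quantile normalization and 4 with its 8 arrays alone (Cd68, Lgals3, Lyz1 and Lyz2, higher in older mice). In hippocampus it gave 10 with quantile normalization, 3 with array medians subtracted (Ch25h, S100a4 and Slc15a3, higher in older mice), 4 with robust variance (the same 3 and Cd68), 9 with array weights, 20 with age per 3 months and from 0 to 7 with single arrays left out. These genes are named after their values were seen. In the fit with the replicate number as a block, the Fgf21 differences were 0.10 in cerebellum, 0.075 in hippocampus, -0.025 for the contrast of the regions and 0.087 for the average, and the block called 0 genes in each. The block could not be fitted for age, since the numbers define the age classes. The planned comparisons of Gdf15 and its correlation with Fgf21 were not run, as it is not analysed here.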
